A study of Mus musculus with 6 samples.

Results

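Liver iron and heme homeostasis was followed through 10 genes: Hamp, Tfrc, Tfr2, Trf, Slc40a1, Hfe, Cp, Hpx, Alas1 and Hmox1. Their probe sets were taken by gene symbol from the array's annotation, which gave 27 of the 45101 probe sets in the table, for 10 of the 19324 gene symbols on the array. Whole liver carrying a LIGHT transgene (LIGHT Tg, 3 samples) was compared with B6 wild-type whole liver (WT, 3 samples), with 1 Affymetrix array per sample. All mice were 4 to 8 weeks old and had eaten the high-fat diet TD88137 for 2 weeks. LIGHT, the product of Tnfsf14, is a ligand of the tumour necrosis factor family. The sources used here give neither the promoter that drives the transgene nor the strain of the LIGHT Tg mice, so genetic background and transgene cannot be told apart. Genotypes follow the titles and source names, since the free-text description calls every sample wild type. That each sample is a separate animal is not stated either, and p-values therefore measure the spread between these samples, which may be technical.

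The liver is both the main store of body iron and the source of the hormone that controls it. Hepatocytes secrete hepcidin, which binds the exporter ferroportin and causes its loss from the cell surface, so that iron is held in macrophages and gut cells. Hepcidin transcription is driven by BMP ligands through SMAD proteins, with HFE and transferrin receptor 2 as sensors of transferrin-bound iron, and by interleukin-6 through STAT3. Heme is made from glycine in a pathway that starts at ALAS1, is carried in plasma by hemopexin, and is broken down by heme oxygenase 1, which releases the iron.

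The arrays fell into 2 sets that cross the genotypes. LIGHT Tg 1 and WT 1 are titled 77 and 78, while the other 4 arrays carry titles from 30 to 35. Xist had signals of 406.6 to 444 on the arrays titled 77 and 78, and of 7993 to 9714 on the others. The Y-linked gene Eif2s3y had 1037 to 1272 on the arrays titled 77 and 78 and at most 2.819 elsewhere. The sources used here do not say what the title number stands for, and the labels give no sex. Xist and Eif2s3y differ between the sets as they do between female and male tissue. Title-number set and sex therefore cannot be told apart here. Each genotype has 1 array of the first set and 2 of the second, and between the sets 27.4% of all tested probe sets passed 5% FDR in limma, so the fit was also made with the set as a block, and its adjusted p is given beside the main differences. Transcript of the transgene's gene, Tnfsf14, was dim at its brightest probe set, with 55.69, 19.26 and 26.7 in LIGHT Tg 1 to 3 and 7.7, 11.85 and 7.433 in WT 1 to 3. The hepatocyte markers were present on every array, with summed signals of 212707 to 218245 in LIGHT Tg and 214549 to 218765 in WT over 11 genes, of which none passed in either fit.

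The promoter of Hamp is shown because the regulation of hepcidin is what joins most of these genes, and because Id1 and Smad6, also targets of BMP and SMAD signalling, passed the test between the genotypes while Hamp did not. RefSeq's table of promoters (GRCm38.p6) held 7 of the 10 genes; Trf, Slc40a1 and Hmox1 had no entry. The window of 250 bases before the start of Hamp lies on the minus strand at chr7:30944030-30944279. Capitals mark a match to the core of the BMP response element, GGCGCC, and to the STAT site TTCNNNGAA.
Hamp: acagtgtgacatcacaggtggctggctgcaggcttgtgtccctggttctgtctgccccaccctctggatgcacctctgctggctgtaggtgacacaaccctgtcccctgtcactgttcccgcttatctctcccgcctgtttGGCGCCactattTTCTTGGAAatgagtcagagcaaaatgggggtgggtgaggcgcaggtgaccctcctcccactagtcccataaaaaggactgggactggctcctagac
The GGCGCC match begins 109 bases before the start and the STAT match 97 bases before it. On either strand, GGCGCC was found in 9.59% of all 32851 promoter windows of this length and TTCNNNGAA in 7.02%, with no overlap between these motifs in the Hamp window. Among the other windows of these genes, GGCGCC was found in 1 window of Tfrc and TTCNNNGAA in 1 window of Alas1. The antioxidant response element core TGACNNNGC, in 10.2% of all windows, was found in those of Hfe and Hpx, and the E-box CACGTG, in 6.02% of all windows, in none. These matches describe the letters only.

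Over the 10 genes, 1 probe set of the iron exporter Slc40a1 and 2 of ceruloplasmin, Cp, passed with the title-number set as a block. All 3 had higher signals in LIGHT Tg in both sets. Log2 differences at the other Cp probe sets ran from -0.14 to 0.61, and none of them passed in either fit. Alas1 1424126_at had lower signals in LIGHT Tg in both sets and did not pass. The probe sets of Hpx, of Tfr2 and the one shared by Trf and Srprb had small differences. For Hamp, Tfrc and Hmox1, none of which passed, the value for LIGHT Tg 1 against WT 1 was larger than that in the other arrays, a difference between sets that did not pass its own test. Of the 27 probe sets, 23 passed the filter on low signal, 1 lay below it and 3 were control probe sets of the array, which were not tested. None of the 23 passed 5% FDR in limma without the block, where 4 had an unadjusted p under 0.05, while 1.17% of all 22519 tested probe sets passed and 11% had such a p. With the title-number set as a block, 3 of the 23 passed, all higher in LIGHT Tg, against 6.47% of all tested probe sets in either direction and 3.26% higher. In the 4 arrays titled 30 to 35 alone 1 of the 23 passed, against 4.25% of all tested. The groups did not overlap at 3 of the 23, all with LIGHT Tg above WT, against 8.17% of all probe sets with LIGHT Tg above. With 3 arrays a side, 0.1 is the smallest p of an exact permutation test. The median log2 difference was 0.25 over the 23 and -0.01 over all tested probe sets, and 16 of the 23 were positive. Cp alone holds 8 of the 23, so these values weigh it more than any other gene. In the arrays titled 30 to 35 alone the medians were 0.07 over the 23 and -0.02 over all tested probe sets.

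**Figure D1:**
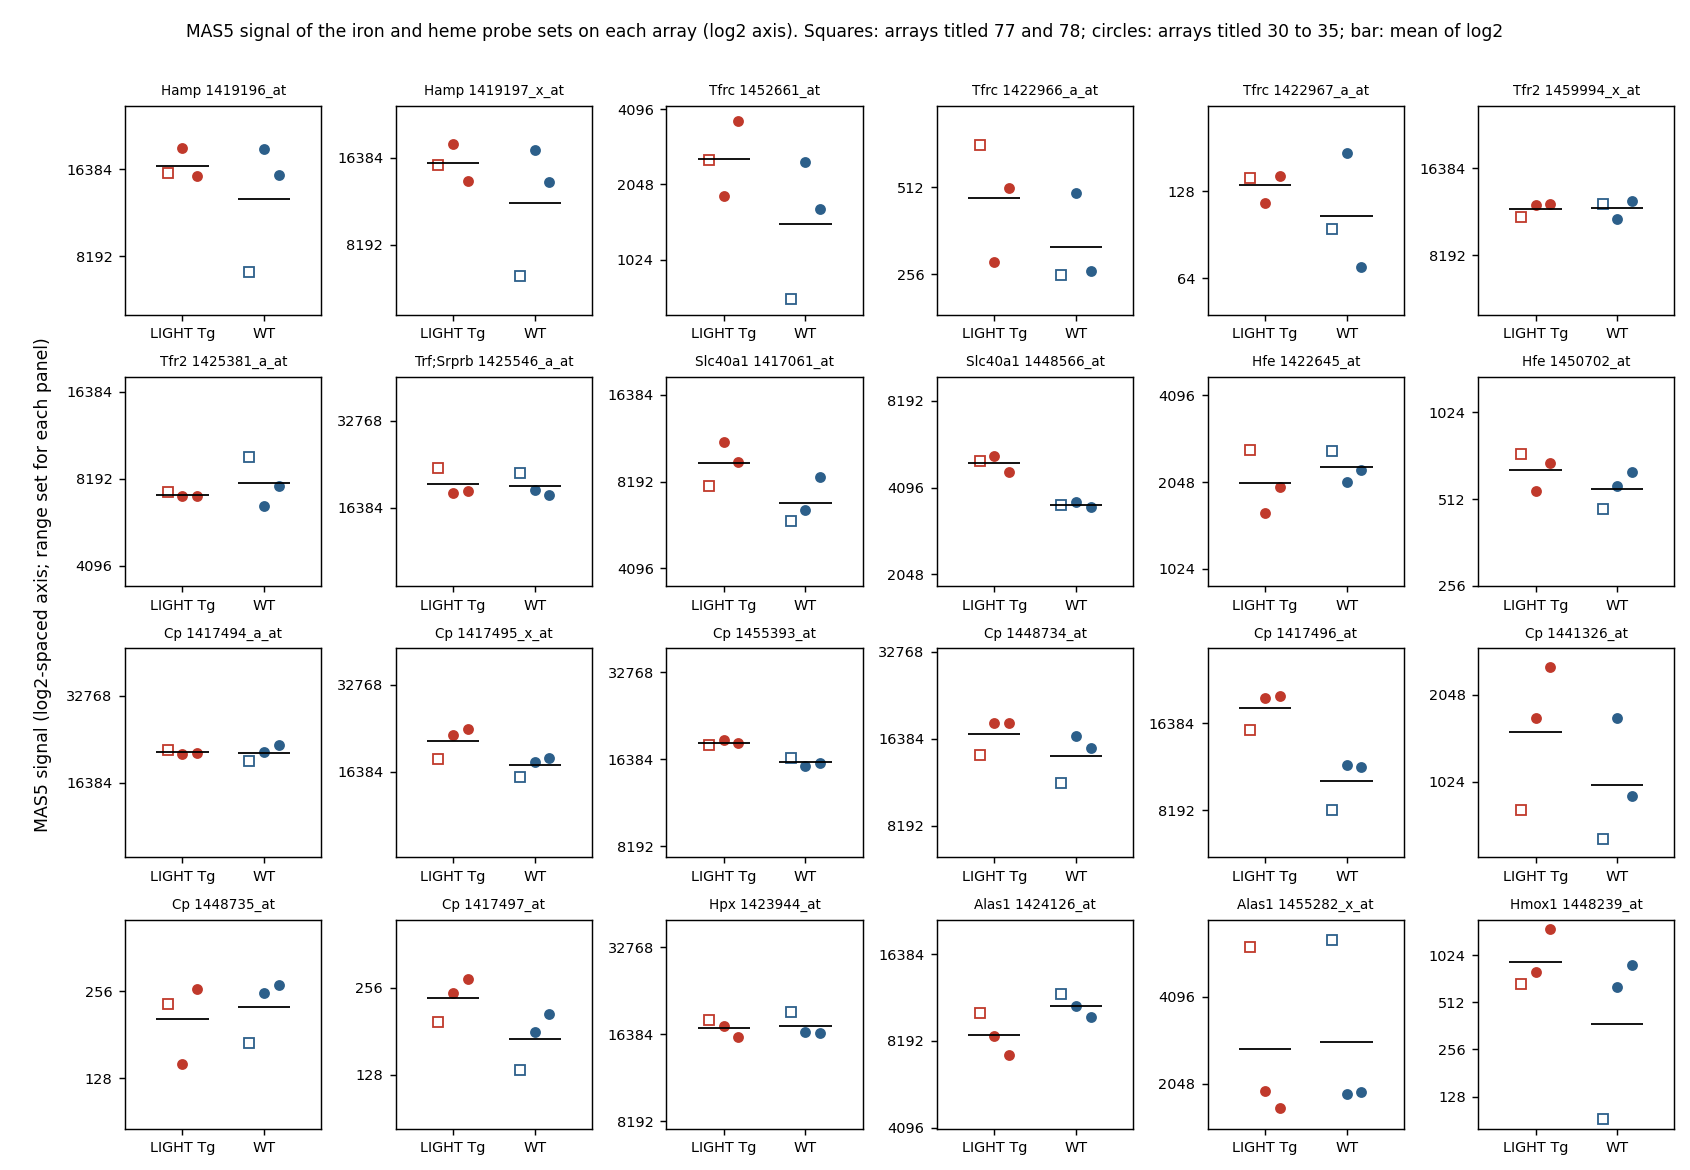
MAS5 signal (log2-spaced axis, range set for each panel) of the 24 iron and heme probe sets other than controls on each array, with LIGHT Tg in red on the left and WT in blue on the right of each panel. Squares are the arrays titled 77 and 78, circles those titled 30 to 35, and bars the mean of the log2 signals of 3 arrays. Slc40a1 1448566_at, Cp 1417496_at and Cp 1455393_at show groups that do not overlap, and WT 1 is the lowest of the 6 arrays for Hamp, Hmox1 and Tfrc 1452661_at.

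Slc40a1 encodes ferroportin, the only known iron exporter of mammalian cells, which in liver is abundant on macrophages and present on hepatocytes. At the probe set 1448566_at its signals were 5070, 5249 and 4654 in LIGHT Tg 1 to 3, against 3557, 3637 and 3516 in WT 1 to 3. Every LIGHT Tg value lay above every WT value, and the WT arrays were within a narrow range. The log2 difference was 0.48 ± 0.116 (SE, n = 3 per group; 1.40-fold), with an adjusted p of 0.136 in limma and of 0.0247 with the block. It was 0.51 between the arrays titled 77 and 78 and 0.47 in those titled 30 to 35. At 1417061_at the signals were 7909, 11238 and 9609 in LIGHT Tg and 5969, 6512 and 8477 in WT. These overlapped, since LIGHT Tg 1 lay below WT 3, and the log2 difference of 0.46 ± 0.183 (SE, n = 3 per group) did not pass (limma adjusted p = 0.413, and 0.0688 with the block). Both probe sets of the exporter thus gave differences of like size, of which 1 passed with the block. Kupffer cell and macrophage markers, summed over 13 genes, were at 27658 to 45868 in LIGHT Tg and 39483 to 46574 in WT, and none of the 12 tested passed in either direction with or without the block. None of these marker genes was at 0. In whole liver, a change in the number of cells of a type and a change of RNA per cell cannot be told apart.

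Ceruloplasmin, encoded by Cp, is the copper ferroxidase of plasma, which oxidises exported iron so that transferrin can bind it. It is read by 8 probe sets, which did not give the same difference. At 1417496_at the signals were 15578, 20017 and 20381 in LIGHT Tg 1 to 3 and 8198, 11770 and 11565 in WT 1 to 3. The genotypes did not overlap, and the array titled 77 or 78 was the lowest of its genotype. The log2 difference of 0.84 ± 0.177 (SE, n = 3 per group; 1.79-fold) had an adjusted p of 0.0959 in limma, of 0.000894 with the block and of 0.00401 in the arrays titled 30 to 35 alone. Within sets it was 0.93 in the arrays titled 77 and 78 and 0.79 in the others. The probe set 1417495_x_at had 18133, 21976 and 23009 in LIGHT Tg against 15769, 17775 and 18306 in WT. There LIGHT Tg 1 lay below WT 3, and the difference of 0.28 ± 0.120 passed only with the block (limma adjusted p = 0.463, and 0.0370 with the block). At 1455393_at the signals were 18345, 19063 and 18632 in LIGHT Tg and 16585, 15549 and 15881 in WT, or 0.22 ± 0.0829 on the log2 scale, with groups that did not overlap (limma adjusted p = 0.368, and 0.0727 with the block).

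The other probe sets of Cp overlapped between the genotypes. For 1448734_at the log2 difference was 0.25, with an adjusted p of 0.0717 with the block in limma. At 1417494_a_at the mean signal was 20870 ± 393.9 in LIGHT Tg and 20850 ± 1374 in WT (SD, n = 3 each), and the 95% confidence interval of the log2 difference ran from -0.20 to 0.21. The dimmer probe sets 1441326_at, 1417497_at and 1448735_at had log2 differences of 0.61, 0.47 and -0.14, none of which passed with or without the block. The sources used here do not say which exons or transcript ends the probe sets read. Of the 8 probe sets of Cp, 2 rose with the block, and the interval of 1417494_a_at excludes the difference seen at 1417496_at. The mean log2 signals of these probe sets were at percentiles 100 and 99.6 of all probe sets other than controls. How far signals this high follow RNA amount in proportion was not tested.

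**Figure D2:**
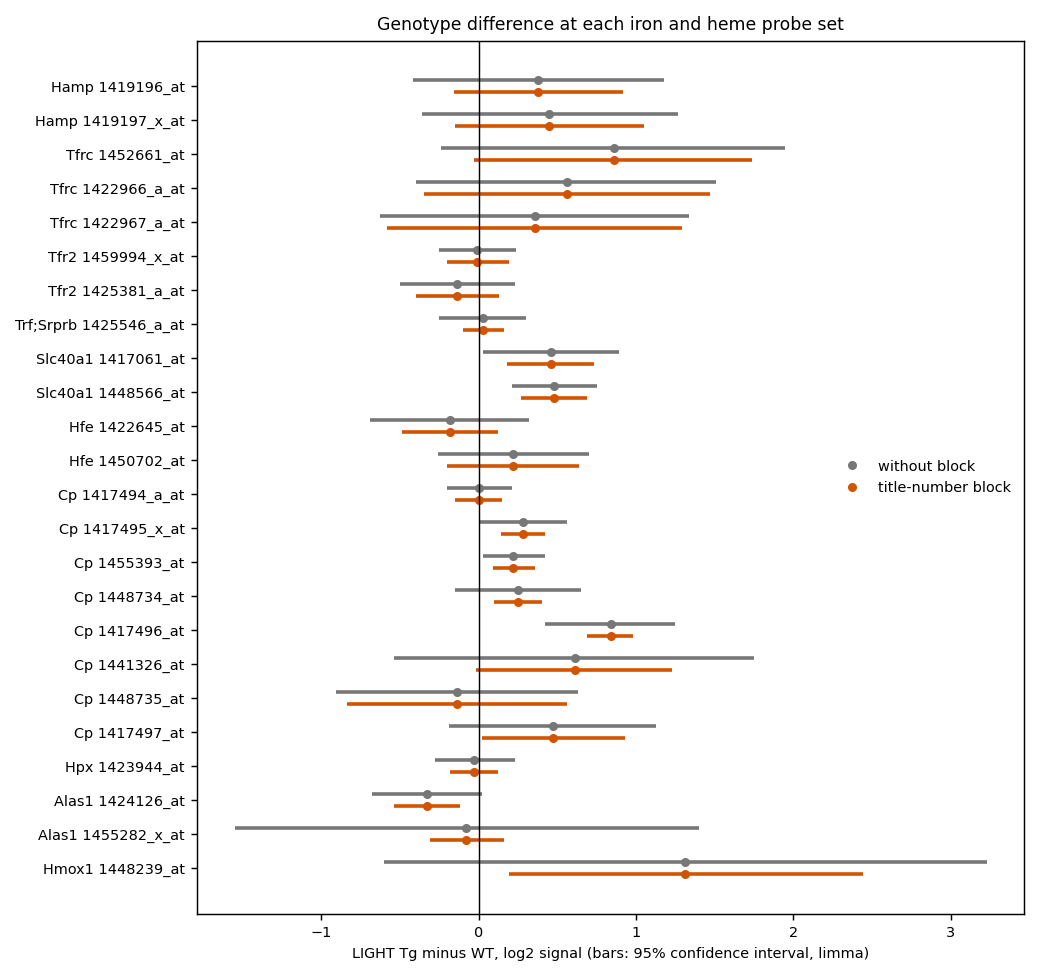
Log2 difference of LIGHT Tg minus WT (horizontal axis) at each of the 24 iron and heme probe sets other than controls, with bars for the 95% confidence interval from limma. Grey is the fit without a block and orange the fit with the title-number set as a block. Slc40a1 1448566_at (0.48) and 1417061_at (0.46) and Cp 1417496_at (0.84) and 1455393_at (0.22) lie clear of 0 in both.

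Transferrin, the plasma carrier of iron, hemopexin, the plasma carrier of heme, and the sensors Tfr2 and Hfe showed no difference that passed. The probe set for Trf also carries the symbol Srprb, so its signal cannot be given to Trf alone. It had 22573, 18471 and 18783 in LIGHT Tg and 21568, 18916 and 18089 in WT, a log2 difference of 0.03 with a 95% interval from -0.25 to 0.30. For Hpx the signals were 18319, 17428 and 16014 in LIGHT Tg and 19631, 16721 and 16486 in WT, and the interval of the log2 difference ran from -0.28 to 0.23. For both, the groups overlapped, and the intervals exclude a signal difference as large as that of Cp 1417496_at. The mean log2 signals of these probe sets were at percentiles 99.9 and 99.8 of all probe sets other than controls. Whether signals this high follow RNA amount in proportion was not tested. Tfr2, the transferrin receptor of hepatocytes that feeds the hepcidin pathway, had a mean of 11915 ± 702.7 in LIGHT Tg and 11981 ± 888.3 in WT at 1459994_x_at (SD, n = 3 each). Its other probe set, 1425381_a_at, had a log2 difference of -0.14 with an interval from -0.50 to 0.23. Hfe encodes the MHC class I-like protein that is mutated in human hemochromatosis. Its 2 probe sets differed in sign, with -0.18 at 1422645_at and 0.22 at 1450702_at, and neither passed in limma (adjusted p = 0.881 and 0.829, and 0.452 and 0.521 with the block).

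The hepcidin gene Hamp had 1 low array, a WT one, and showed no difference that passed. At 1419196_at the signals of Hamp were 15886, 19432 and 15498 in LIGHT Tg 1 to 3, against 7204, 19334 and 15711 in WT 1 to 3. WT 1 was the low array, and the other 5 lay between 15498 and 19432. The log2 difference of 0.38 ± 0.341 (SE, n = 3 per group) did not pass (limma adjusted p = 0.820, and 0.385 with the block). It was 1.14 between LIGHT Tg 1 and WT 1, a 2.21-fold ratio of 1 array to 1, and -0.01 in the arrays titled 30 to 35. Without WT 1 it was -0.05. The second probe set, 1419197_x_at, gave 1.28 and 0.04 within the sets. The mean log2 signals of these Hamp probe sets were at percentiles 99.6 and 99.5 of all probe sets other than controls. How far Hamp signals this high follow RNA amount in proportion was not tested. A test of the difference between sets, the interaction of genotype and set in limma, gave an unadjusted p of 0.00378 and an adjusted p of 0.207 for 1419196_at, and none of the 23 passed, against 0.0666% of all tested probe sets. Both probe sets of Hamp and that of Hmox1 were the 3 of the 23 with an unadjusted p under 0.05 in that test, against 11% of all tested. Hamp2, the second hepcidin gene of the mouse, had 21516, 21121 and 22377 in LIGHT Tg and 1610, 19213 and 11888 in WT at 1436643_x_at. LIGHT Tg lay above WT on all arrays, again with WT 1 far below, and the log2 difference of 1.60 ± 0.817 did not pass (limma adjusted p = 0.566, and 0.165 with the block). It was 3.74 between LIGHT Tg 1 and WT 1, and 0.52 both in the arrays titled 30 to 35 and without WT 1. A second Hamp2 probe set below the filter, 1456289_at, had 28.4, 226.6 and 68.1 in LIGHT Tg. In WT it had 37.99, 129.7 and 61.88, and the groups overlapped. Probes of the 2 genes may share transcripts, so which gene each signal comes from is uncertain.

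The transferrin receptor Tfrc takes iron into most cells, and its transcript is stabilised when cellular iron is low. Of its 6 probe sets, the brightest, 1452661_at, had 2553, 1844 and 3673 in LIGHT Tg and 710.6, 2513 and 1635 in WT. WT 1 was the lowest array and the groups overlapped. The log2 difference of 0.86 ± 0.468 (SE, n = 3 per group) had a limma adjusted p of 0.608, and 0.234 with the block, and the difference was 0.35 when WT 1 was left out. Within sets it was 1.85 for LIGHT Tg 1 against WT 1 and 0.36 for the other arrays. At 1422966_a_at the corresponding values were 1.50 and 0.09. The log2 difference over all arrays there was 0.56, with 0.39 without WT 1 and 0.25 without LIGHT Tg 1. A probe set below the filter, 1422967_a_at, had 116.7 to 144.4 in LIGHT Tg and 69.89 to 172.9 in WT. The 3 control probe sets of the array for this receptor, which read the 3′, middle and 5′ parts of its transcript by name, were dim. The 3′ one had signals of 221.8 to 338.1 in LIGHT Tg and 133.2 to 277 in WT, and the 5′ one 49.81 to 87.6 in LIGHT Tg and 5.4 to 128.4 in WT.

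Heme oxygenase 1, encoded by Hmox1 and induced by heme and oxidative stress, had the largest log2 difference and the widest spread of the tested probe sets of these genes. Its signals were 670.3, 801.6 and 1492 in LIGHT Tg and 91.76, 640.7 and 885.6 in WT at 1448239_at. WT 1 again lay far below the others, and LIGHT Tg 1 and 2 lay below WT 3. The log2 difference was 1.31 ± 0.816 (SE, n = 3 per group), with an adjusted p of 0.669 in limma and of 0.163 with the block. Between LIGHT Tg 1 and WT 1 it was 2.87, against 0.54 in the arrays titled 30 to 35, and without WT 1 it was 0.30. The interaction had an unadjusted p of 0.00609 and an adjusted p of 0.251. In the same pair of arrays, the erythroid heme enzyme Alas2 had 584.5 in LIGHT Tg 1 and 2873 in WT 1, while the other arrays lay between 637.2 and 897.3. The summed erythroid markers, over 9 genes that include Alas2, were 1963 in LIGHT Tg 1 and 4663 in WT 1, and 2102 to 2719 on the other 4 arrays. Slc4a1, Klf1, Gata1 and Tspan33, the other erythroid markers tested, had 257.8, 410.5, 229.8 and 421.6 in WT 1. Each of these lay within the range of the other arrays, so the high sum of WT 1 does not reflect a rise of these markers. None of the erythroid markers measured was at 0, none of the 5 tested passed in either fit, and their part in the values of WT 1 was not tested.

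**Figure D3:**
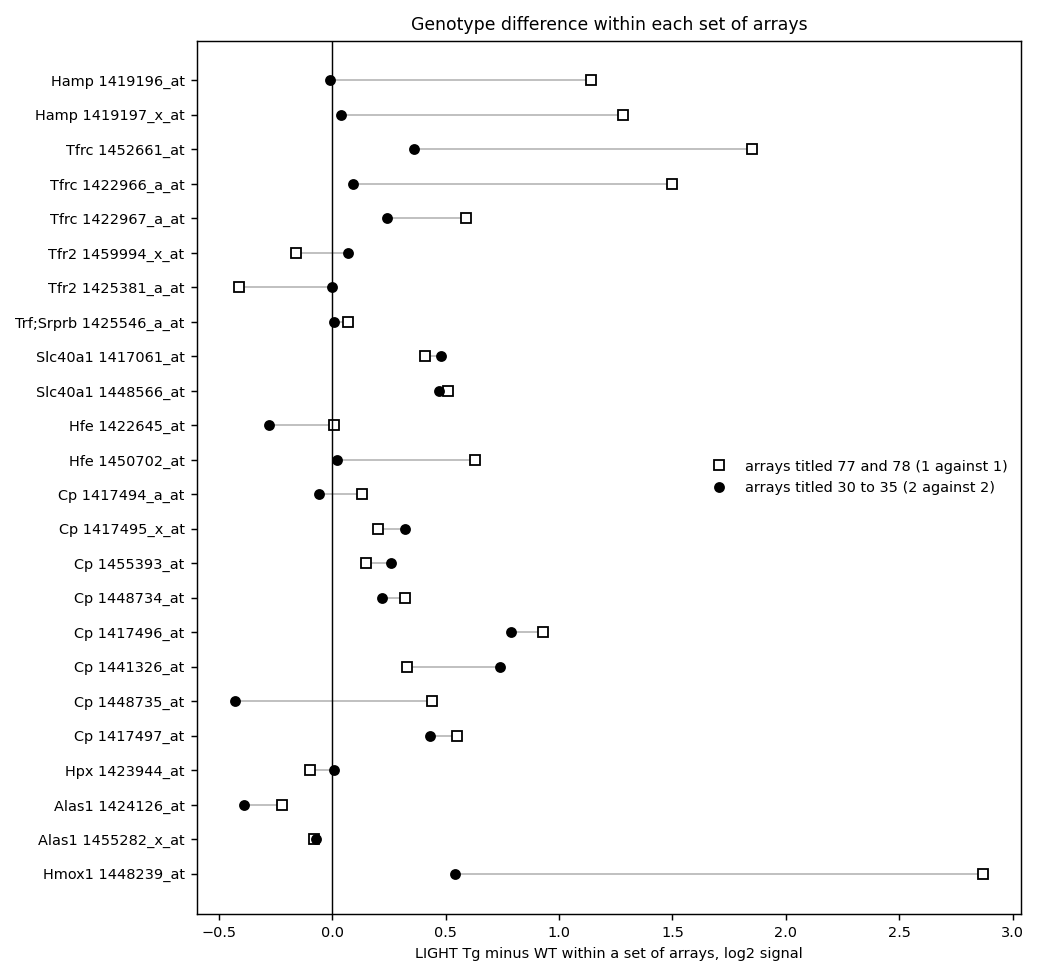
Log2 difference of LIGHT Tg minus WT (horizontal axis) within the arrays titled 77 and 78 (open squares, 1 array against 1) and within those titled 30 to 35 (filled circles, 2 against 2) for the same 24 probe sets. For Slc40a1 1448566_at the marks are at 0.51 and 0.47 and for Cp 1417496_at at 0.93 and 0.79, whereas for Hamp 1419196_at they are at 1.14 and -0.01 and for Hmox1 at 2.87 and 0.54.

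Alas1 encodes the first and rate-limiting enzyme of hepatic heme synthesis, and its 2 probe sets gave different pictures. At 1424126_at the signals were 10255, 8498 and 7337 in LIGHT Tg and 11922, 10799 and 9894 in WT. In each set of arrays LIGHT Tg lay below WT, although LIGHT Tg 1 lay above WT 3. The log2 difference of -0.33 ± 0.150 (SE, n = 3 per group) did not pass (limma adjusted p = 0.489, and 0.0767 with the block). The other probe set, 1455282_x_at, parted the sets of arrays and not the genotypes, with 6080 in LIGHT Tg 1 and 6429 in WT 1 against 1681 to 1935 on the other 4 arrays. The difference of the arrays titled 77 and 78 from the others was 1.76 ± 0.106 on the log2 scale there (limma adjusted p = 0.000472), and 0.29 at 1424126_at (adjusted p = 0.0565). Over all 23 tested probe sets, 7 differed between the sets of arrays at 5% FDR, beside the 27.4% of all probe sets given above. These were 4 of Cp, with log2 differences from -1.15 to -0.25, the shared probe set of Trf and Srprb at 0.25, Alas1 at 1.76, and Hmox1 at -1.87.

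The pathway that controls hepcidin was described with 19 further genes that passed the filter, 1 probe set per gene. With and without the block 2 of them rose, Id1 and Smad6, and none fell. Of all tested probe sets, 1.17% passed without the block in either direction, and 3.26% rose with it. Id1 and Smad6 are described next. Both are direct targets of BMP and SMAD signalling, Id1 encoding an inhibitor of helix-loop-helix factors and Smad6 an inhibitory SMAD. Id1 had signals of 1355, 1580 and 1342 in LIGHT Tg and 394, 289.9 and 471.6 in WT. The log2 difference was 1.91 ± 0.220 (SE, n = 3 per group; 3.76-fold), with an adjusted p of 0.0134 in limma and of 0.00356 with the block. Smad6 had 1240, 1467 and 1497 in LIGHT Tg against 427.2, 366.3 and 269.4 in WT, a difference of 2.00 ± 0.219 (4.01-fold; limma adjusted p = 0.0110, and 0.00284 with the block). For both genes all LIGHT Tg arrays lay above all WT arrays in both sets. Without the block Id1 missed the threshold when LIGHT Tg 2 (adjusted p = 0.0689) or LIGHT Tg 3 (0.0870) was left out. Smad6 missed it without LIGHT Tg 2 (0.0631), LIGHT Tg 3 (0.0870) or WT 2 (0.0603).

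No other gene of that list passed in either fit. Smad7, another inhibitory SMAD, had 397.8 ± 51.01 in LIGHT Tg and 455.4 ± 117.7 in WT (SD, n = 3 each), a log2 difference of -0.17. Bmp6, the ligand that signals iron load, had signals of 183, 182.8 and 100.6 in LIGHT Tg and 235.5, 255.3 and 186.3 in WT. All LIGHT Tg values were below all WT values, but the log2 difference of -0.58 ± 0.329 did not pass (limma adjusted p = 0.631, and 0.296 with the block). Tmprss6, a protease that lowers hepcidin by cleaving the BMP co-receptor hemojuvelin, had -0.03. The median log2 difference of the 19 genes was -0.07, against -0.01 over 11563 genes.

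Endothelial cells also express Id1 and Smad6, and some markers of liver endothelium were higher in LIGHT Tg. Of 12 endothelial markers tested, 2 rose, Vwf by 2.39 ± 0.229 and Lyve1 by 1.24 ± 0.200 on the log2 scale (limma adjusted p = 0.00678 and 0.0393, and 0.000929 and 0.00785 with the block), and with the block 4 rose, with Stab2 and Fcgr2b added. The other 8 did not pass in either fit, among them Kdr at -0.09, Cdh5 at 0.12 and Pecam1 at 0.19, whose groups overlapped. Over all tested probe sets, 1.17% passed without the block in either direction and 3.26% rose with it. The call of Lyve1 was lost when any 1 array other than LIGHT Tg 1 was left out, with adjusted p between 0.0597 and 0.174, and that of Vwf without LIGHT Tg 3 (0.0512). Lyve1 also missed the threshold with no filter (0.0519) and with eBayes without trend (0.0725). The summed signal of the 12 markers was 17197 to 20860 in LIGHT Tg and 12007 to 13782 in WT, and no marker was at 0. Other probe sets of Fcgr2b had log2 differences of 0.01, -0.10 and 0.25. What part the endothelial signal has in the values of Id1 and Smad6 was not tested.

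Among genes of cellular iron uptake and storage, none of the 19 tested passed without the block (median log2 difference -0.16). With it 1 rose, beside 3.26% of all tested probe sets. This was Slc39a14, which encodes the ZIP14 carrier for iron not bound to transferrin. It had 6134, 6640 and 7003 in LIGHT Tg and 3717, 3989 and 4859 in WT, so that the groups did not overlap. The log2 difference was 0.66 ± 0.141 (SE, n = 3 per group; 1.58-fold; limma adjusted p = 0.0965, and 0.0120 with the block). Of its other 3 probe sets, 2 also passed with the block, with log2 differences of 0.53 and 0.73, and the remaining one had 0.21. The ferritin heavy chain gene Fth1, whose protein stores iron, had a log2 difference of 0.03, and Ireb2, an iron regulatory protein that stabilises Tfrc transcript, had -0.46 ± 0.170 (limma adjusted p = 0.367, and 0.102 with the block). Lcn2, a siderophore-binding protein of the acute phase, spread widely, with 14159, 926.3 and 7405 in LIGHT Tg against 13350, 12825 and 13363 in WT. Lower values in LIGHT Tg 2 and 3 gave a log2 difference of -1.52 ± 0.886, which did not pass (limma adjusted p = 0.642, and 0.303 with the block).

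Genes of heme synthesis other than Alas1 had mostly negative log2 differences, 9 of the 12 tested. Their median was -0.19, against -0.01 over 11563 genes. None passed at its brightest probe set without the block, and 3 fell with it: Cpox, Fech and Tmem14c. With the block 6.47% of all tested probe sets passed in either direction. Cpox encodes coproporphyrinogen oxidase, and had 603.2, 1437 and 1311 in LIGHT Tg and 1312, 3745 and 3243 in WT. Each LIGHT Tg array lay below the WT arrays of its own set, and the log2 difference was -1.27 ± 0.477 (SE, n = 3 per group; limma adjusted p = 0.375, and 0.00268 with the block). A second probe set of Cpox, 1422493_at, had 545.4, 667.2 and 717.9 in LIGHT Tg and 1417, 1318 and 1809 in WT, and passed in both fits at -1.23 ± 0.197 (limma adjusted p = 0.0393, and 0.00668 with the block). Fech, ferrochelatase, which inserts iron into the porphyrin ring, had 4229, 4035 and 3448 in LIGHT Tg against 5582, 5423 and 5203 in WT. Its log2 difference was -0.47 ± 0.128 (limma adjusted p = 0.186, and 0.0327 with the block), and other tested probe sets of Fech had -0.44 and -0.37 without passing. Tmem14c, a mitochondrial porphyrin transporter, had -0.51 ± 0.314 (limma adjusted p = 0.663, and 0.0448 with the block), and without the block its value was -0.82 with LIGHT Tg 1 left out and -0.28 with WT 1 left out. None of the 12 genes of heme breakdown and transport passed in either fit (median -0.13). Of 13 genes of mitochondrial iron handling 1, Isca1, fell with the block. Its log2 difference was -0.51 ± 0.144 (limma adjusted p = 0.208, and 0.0347 with the block). A second probe set of Isca1, 1423652_at, had -0.31 and passed in neither fit.

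**Figure D4:**
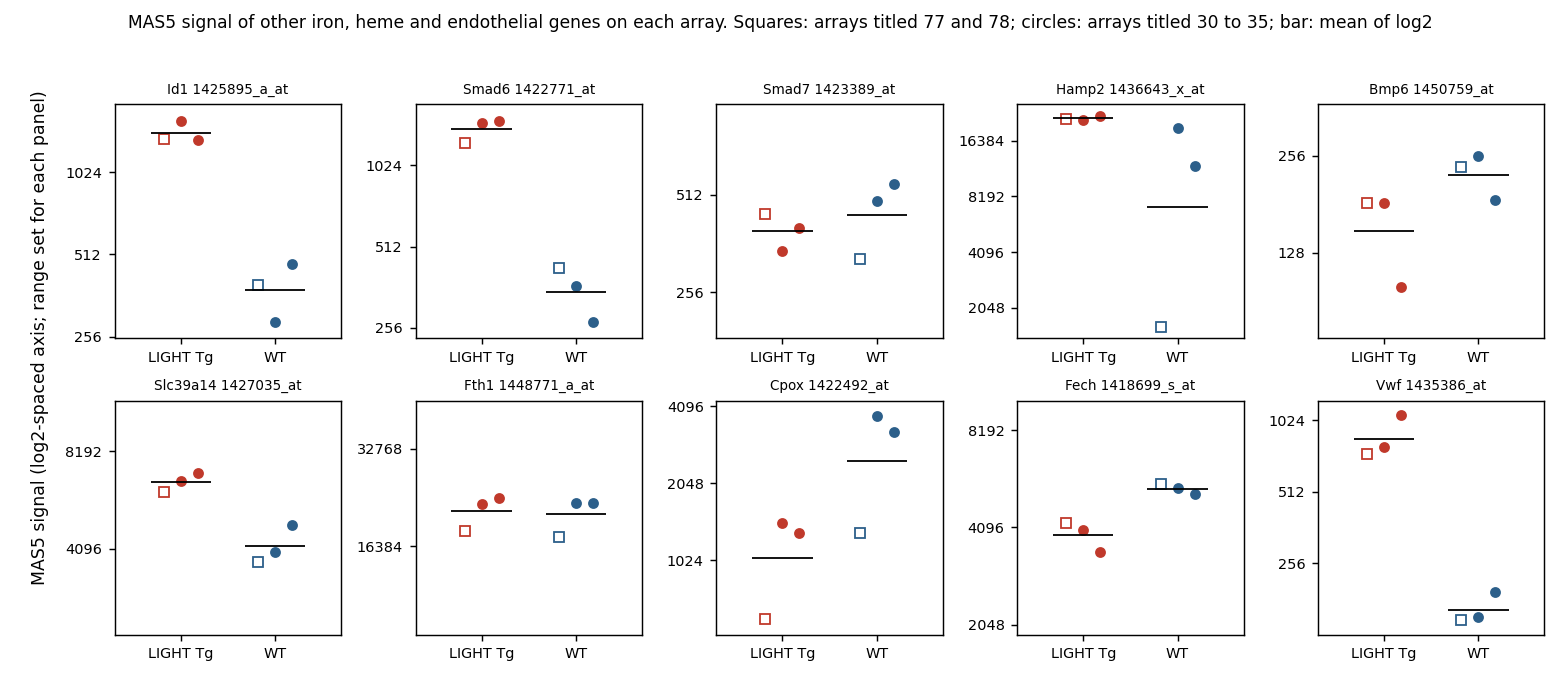
MAS5 signal (log2-spaced axis, range set for each panel) of 10 further genes on each array, LIGHT Tg in red on the left and WT in blue on the right. Squares are the arrays titled 77 and 78, circles those titled 30 to 35, and bars the mean of the log2 signals of 3 arrays; Id1, Smad6, Slc39a14 and Vwf lie higher in LIGHT Tg on all arrays, Fech and Bmp6 lower, and Cpox is lower within each set of arrays.

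The regulators of Alas1 and Hmox1 were described with 12 further genes, of which none passed without the block and 2 rose with it (median -0.20). For this and the next lists, 1.17% of all tested probe sets passed without the block. With it 6.47% passed in either direction and 3.26% rose. Nfe2l2, the transcription factor NRF2 that induces Hmox1, had 3986, 3744 and 4052 in LIGHT Tg and 2513, 2608 and 3082 in WT. The groups did not overlap, and the log2 difference was 0.53 ± 0.136 (SE, n = 3 per group; limma adjusted p = 0.163, and 0.0358 with the block). Mafk, a partner of NRF2 and of the repressor BACH1, had 0.59 ± 0.239 (limma adjusted p = 0.420, and 0.0435 with the block). Mafg, another small MAF protein, had -0.71 ± 0.247 with all LIGHT Tg values below all WT values, and passed neither fit (limma adjusted p = 0.326, and 0.117 with the block). In the arrays titled 30 to 35 alone Mafg passed, at -1.07 (adjusted p = 0.0216), against -0.01 between LIGHT Tg 1 and WT 1. Among 10 NRF2 target genes, none passed without the block and 1 fell with it, Gclm, a subunit of the enzyme of glutathione synthesis, at -0.78 ± 0.221 (limma adjusted p = 0.210, and 0.0241 with the block). The differences of 8 of the 10 were positive, with a median of 0.22, against -0.01 over 11563 genes. Among them were Abcc4, an efflux transporter, at 1.01 with groups that did not overlap, Osgin1 at 0.84 and Pgd at 0.69, none of which passed (limma adjusted p = 0.271, 0.570 and 0.443, and 0.0944, 0.0906 and 0.0753 with the block). The median of that list was 0.68 between LIGHT Tg 1 and WT 1 and -0.06 in the arrays titled 30 to 35. Ppargc1a and Nr1i3, which activate Alas1, had log2 differences of -0.74 ± 0.272 and -0.88 ± 0.235 with all LIGHT Tg values below all WT values, and neither passed (limma adjusted p = 0.361 and 0.181, and 0.0729 and 0.0630 with the block). Of 14 acute phase genes, Saa4 fell by 0.95 ± 0.145 on the log2 scale (limma adjusted p = 0.0347), a call lost when any 1 array other than WT 1 was left out (adjusted p between 0.0761 and 0.137). Saa4 also missed the threshold with no filter (0.0612), quantile normalization (0.0719) and eBayes without trend (0.105), and with the block 2 of the list fell, Saa4 and Serpina3n. Serpina3n had -0.42 ± 0.319 (limma adjusted p = 0.758, and 0.0473 with the block), and without the block its value ran from -0.73 without LIGHT Tg 1 to -0.16 without WT 1, with -0.20 without LIGHT Tg 2.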

How the data were processed

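The values are MAS5 signal intensities, deposited by the authors as 1 linear value for each probe set. The submitters' processing notes name MAS5; the sources used here do not give its version, its scaling target or detection calls, so no probe set is called absent. Trimmed means lay between 490 and 505.1 on the 6 arrays, so the authors' deposited intensities are read as scaled per array. Precision is limited by how many arrays there are. The 106 signals under 1 were raised to 1 before log2. Of 45101 probe sets, 64 controls were left out of all tests; of the other 45037, 34945 had 1 gene symbol, 932 had several and 9160 none. Probe sets with a mean log2 signal of at least the median, 7.387 (a signal of 167.4), were tested, 22519 in all; the Tfrc probe set below it takes its values from the same fit without the filter. The genotypes were tested with lmFit and trended eBayes of limma 3.58.1, run in R 4.3.3, two-sided, with Benjamini-Hochberg adjustment over all tested probe sets and a threshold of 5% FDR. Each log2 difference is that of LIGHT Tg minus WT, with its moderated SE; a confidence interval is at 95%. The same model with the title-number set gave the block fit, and with an interaction term the test between sets. The alternatives were no filter or one at the 75th percentile, an offset of 37.5 before log2, quantile or median scaling, eBayes without trend or robust, array weights, the block, the arrays titled 30 to 35 alone, each array left out, and the mean of all probe sets of a gene.

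The members and lists were chosen with earlier results of these data known. Genes are named by rule: all probe sets of the 10 genes, and from each of 12 lists (175 entries, 151 tested) every gene that passed in either fit, up to 4 with the largest moderated statistic and, for cell type lists, the 2 with the highest mean signal. Not every gene the rule names is described. Tmprss6, Smad7, Fth1, Kdr, Cdh5, Pecam1, the array checks and other probe sets of named genes fall outside it and were chosen after their values were seen. Lists are described by counts and medians, with the brightest single-symbol probe set for each gene. The shares of all probe sets that fell with the block, or had all LIGHT Tg values below all WT values, are not given. The fits were also run on simulated data with independent errors and no interaction of genotype and set. That outcome is not given here and lends no weight to the calls. Plots used matplotlib 3.10.9 under Python 3.11.15.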

Additional observations from a re-analysis of the deposited data

How the results depend on the processing

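Of 375 alternative values for the iron and heme probe sets other than controls, 341 kept the direction and the side of the threshold. A further 9 came to pass it and 25 changed sign, none of the last having passed. The cause was not tested. The number of all probe sets past 5% FDR in limma, 264, was 148 with eBayes without trend, 1992 with array weights, 1457 with the title-number block, 956 in the arrays titled 30 to 35 alone, and 43 to 306 with 1 array left out (80 without LIGHT Tg 2, 43 without LIGHT Tg 3, 68 without WT 2 and 63 without WT 3). For the iron and heme probe sets the number, 0, was 1 with quantile normalization, 4 with array weights, 3 with the block, 1 in the arrays titled 30 to 35 alone, and 0 with any 1 array left out.

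Array weights brought past the threshold Slc40a1 1448566_at (0.46), Cp 1417495_x_at (0.30), Cp 1455393_at (0.24) and Cp 1417496_at (0.80). The block did so for Slc40a1 1448566_at (0.48), Cp 1417495_x_at (0.28) and Cp 1417496_at (0.84), quantile normalization for Cp 1417496_at (0.87), and the arrays titled 30 to 35 alone for Cp 1417496_at (0.79).

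The sign changed with quantile normalization for Tfr2 1459994_x_at (0.07) and Hpx (0.00), and with array weights for Tfr2 1459994_x_at (0.01) and Cp 1417494_a_at (-0.07). In the arrays titled 30 to 35 alone it changed for Hamp 1419196_at (-0.01), Tfr2 1459994_x_at (0.07), Tfr2 1425381_a_at (0.00), Cp 1417494_a_at (-0.06) and Hpx (0.01), and with the mean of all probe sets for Hfe 1422645_at (0.02). With 1 array left out, log2 differences ran from -0.05 to 0.66 for Hamp 1419196_at, from -0.07 to 0.04 for Tfr2 1459994_x_at, from -0.27 to 0.02 for Tfr2 1425381_a_at, from -0.06 to 0.10 for the shared probe set of Trf and Srprb, from -0.05 to 0.05 for Cp 1417494_a_at, from -0.35 to 0.12 for Cp 1448735_at, from -0.07 to 0.05 for Hpx and from -0.66 to 0.51 for Alas1 1455282_x_at. They ran from 0.44 to 0.53 for Slc40a1 1448566_at and from 0.67 to 0.96 for Cp 1417496_at.

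No paired analysis was possible because the titles give the genotypes no shared replicate numbers; the block is the set of title numbers. The main limits are that the sets of arrays differ at many probe sets and that no detection calls were used. Also, the differences of Hamp, Hmox1 and Tfrc 1452661_at are much smaller without WT 1.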
